A study of Mus musculus with 3 samples.

Results

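Basal cells of the mouse corneal epithelium are described here. They are the 8829 cells, of 38111 deposited cells, whose class in the authors' cell annotation is Basal. The choice rests on that label alone and on no threshold. The cells come from 3 single-cell RNA-seq libraries of corneal epithelium from healthy C57BL/6J mice in homeostasis, and the labels name no treatment and no altered allele, so the libraries form 1 group. Library 1 pooled 4 corneas of 2 males aged 20 weeks, library 2 pooled 4 corneas of 2 females aged 11 weeks, and library 3 pooled 7 corneas of 7 males aged 10 weeks. Single animals cannot be told apart within a pool, and age, sex and pool size change together between libraries. Basal cells were set beside the other epithelial classes of the same libraries: LSC (737 cells), TAC1 (4136), TAC2 (3186), Wing (13447), Squam (5240) and Conj (2422). The abbreviations are not spelled out in the sources used here. From the markers given beside them, the text reads LSC cells as those of the limbus, Squam cells as the superficial layer and Conj cells as conjunctiva. TAC1 and TAC2 are left as labels.

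The corneal epithelium is a stratified tissue in which the basal layer is the layer that touches the basement membrane. Basal cells are held there by hemidesmosomes, in which the integrin of the alpha 6 and beta 4 chains and the transmembrane collagen XVII link laminin outside the cell to plectin and keratins inside it. The transcription factor p63 marks the basal layer of stratified epithelia. Cells of this layer can divide, and they feed the wing cells above, which flatten into the superficial cells that carry tight junctions and membrane mucins. The stem cells of the tissue are thought to lie at its rim, the limbus, where the cornea meets the conjunctiva. Corneal cells of all layers hold large amounts of a few enzymes, called crystallins, of which the aldehyde dehydrogenase Aldh3a1 and the transketolase Tkt are known examples in the mouse.

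Depth was close to even over the 3 basal sums. Basal cells made up 22.5, 22.8 and 23.7% of the cells of libraries 1, 2 and 3, with exact 95% binomial intervals of 21.7 to 23.4, 22.0 to 23.6 and 23.1 to 24.4%. They held 26530564, 24979084 and 26726794 UMIs (unique molecular identifiers, 1 per counted transcript end), but the median per cell fell from 13166 to 9865 and 5818 UMIs. Shares of cells with a UMI of a gene, and variation among cells, were therefore taken at a fixed number of UMIs. The nearest-profile shares and doublet scores below used cells at unequal depth. Libraries shared 32 to 57 cell barcodes in a pair, and 1 to 7 of these were basal in both. Markers of other cell types were near 0 in basal cells. The summed level of the immune set (7 of its 10 genes in the table, Cd207 at 0) was 0.187 to 1.2 CPM (counts per 1000000 UMIs, here of the class's own total), against 33113 in the class labelled Immune. The stromal set (2 of 6 genes) lay at 0 to 0.32 CPM, the vascular set (1 of 4) at 0.113 to 0.224, the Schwann and nerve set (3 of 4, Tubb3 at 0) at 2.24 to 3.14, the melanocyte set (3 of 4) at 3.44 to 5.5 and the corneal endothelial set (3 of 4) at 5.39 to 7.46.

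Sequences are shown for 4 genes that the results below turn on. Dst (dystonin, a hemidesmosome linker) and Itgb1 (the integrin beta 1 chain) belong to the adhesion genes, Igfbp5 (an insulin-like growth factor binding protein) is among the genes most above the other classes, and Lpar6 (a receptor for lysophosphatidic acid) leads the genes that were higher in basal cells than in every other class. Each is the window of 250 bases before the RefSeq start (GRCm38.p6, the build also called mm10), written 5′ to 3′ on the gene's strand. The windows are chr1:34011345-34011594 (plus strand) for Dst, chr8:128685404-128685653 (plus) for Itgb1, chr1:72874866-72875115 (minus) for Igfbp5 and chr14:73237641-73237890 (plus) for Lpar6. None overlaps a GENCODE M21 exon, except that 19 bases of the Igfbp5 window do. Capitals mark letters shared with the motifs GGGCGG (SP/KLF factors) and GGAATG (TEAD factors), searched on both strands and not overlapping each other here. TGANTCA (AP-1) and TGTGGT (RUNX), searched in the same way, are in none of the 4.
Dst: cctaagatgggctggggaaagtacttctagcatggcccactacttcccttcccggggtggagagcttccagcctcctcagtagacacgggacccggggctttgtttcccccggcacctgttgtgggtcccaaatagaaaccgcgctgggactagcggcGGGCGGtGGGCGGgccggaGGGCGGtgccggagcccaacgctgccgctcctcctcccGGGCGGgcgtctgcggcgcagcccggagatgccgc
Itgb1: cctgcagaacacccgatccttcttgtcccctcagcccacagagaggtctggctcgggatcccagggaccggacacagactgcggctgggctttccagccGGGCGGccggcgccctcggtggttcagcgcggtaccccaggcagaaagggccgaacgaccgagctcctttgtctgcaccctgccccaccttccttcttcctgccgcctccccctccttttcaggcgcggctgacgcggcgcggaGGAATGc
Igfbp5: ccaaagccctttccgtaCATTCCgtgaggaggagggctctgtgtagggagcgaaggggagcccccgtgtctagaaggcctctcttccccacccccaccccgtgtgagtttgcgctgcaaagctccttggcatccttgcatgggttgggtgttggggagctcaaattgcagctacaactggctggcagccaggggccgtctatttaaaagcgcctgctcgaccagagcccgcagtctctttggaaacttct
Lpar6: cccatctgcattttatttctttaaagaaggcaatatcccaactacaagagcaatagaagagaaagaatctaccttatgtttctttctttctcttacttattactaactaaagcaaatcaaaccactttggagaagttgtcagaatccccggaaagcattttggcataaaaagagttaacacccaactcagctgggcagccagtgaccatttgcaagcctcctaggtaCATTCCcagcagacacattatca
GGGCGG stood in the Dst window 4 times and in the Itgb1 window 1 time, and GGAATG stood 1 time each in the Itgb1, Igfbp5 and Lpar6 windows. Of the 23 windows of the 18 adhesion genes that RefSeq's table held, 12 contained GGGCGG (52.2%) and 3 contained GGAATG (13%). Among 32851 mouse windows of that length the shares were 32.7 and 12.6%, and among the 13208 windows of genes tested here 56.4 and 10.9%. The letters alone show no binding.

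The 4 markers set for the class followed its label in part. Trp63 (chr16:25683763-25892102), which encodes p63, was at 157, 167 and 177 CPM in basal cells of libraries 1, 2 and 3. From here on CPM are scaled over the 21 sums of 3 libraries and 7 classes by the TMM method, which keeps the bulk of genes level between classes. Each library's basal value lay above the value of all 6 other classes in that library. TAC1 cells were next with a mean of 150 ± 14.3 CPM (SD, n = 3), then LSC (142), TAC2 (135), Wing (91.1), Conj (48.1) and Squam (23.9). The log2 fold change against the mean of the 6 other classes was 1.03 (SE 0.04, adjusted p = 6.5e-19 in edgeR's quasi-likelihood test). Col17a1 (chr19:47646344-47692094), which encodes collagen XVII, was at 1105, 980 and 975 CPM. It was 1.67 log2 units above the other classes' mean, but TAC1 cells were close to basal cells at 1182, 987 and 1055 CPM, and no difference between them was called (log2 fold change -0.08, adjusted p = 0.666 in edgeR).

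Aldh3a1 (chr11:61207537-61218421) was at 13810, 13066 and 11383 CPM in basal cells, against 12196 ± 1280 in TAC1, 9493 in TAC2, 9008 in Wing, 7400 in Conj, 5748 in Squam and 3548 in LSC cells (SD, n = 3). Basal and TAC1 cells had the highest means. The lowest class depends on the scaling: limbal cells here, and superficial cells (2814 CPM against 4515 in limbal cells) when each class is scaled to its own total. Itga6 (chr2:71745616-71858416), the integrin alpha 6 chain, was the marker that did not follow the layer. Its basal values of 189, 200 and 179 CPM were below those of superficial cells in each library (219, 262 and 196) with overlapping ranges, and the log2 fold change between them was -0.24 with an adjusted p of 0.0508 in edgeR. The order depends on the scaling: scaled to each class's own total, Itga6 was at 228, 235 and 211 CPM in basal and 110, 124 and 98 in superficial cells. The keratin pair of basal keratinocytes did not single out the class either. Krt5 was higher in Wing (10076 ± 963 CPM) than in basal cells (4748 ± 385), and Krt14 was at 438, 674 and 384 CPM in basal cells against 2147, 3963 and 2230 in LSC cells. Each library's LSC value for Krt14 was the higher one. The plot of marker levels by class shows these orders.

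**Figure D1:**
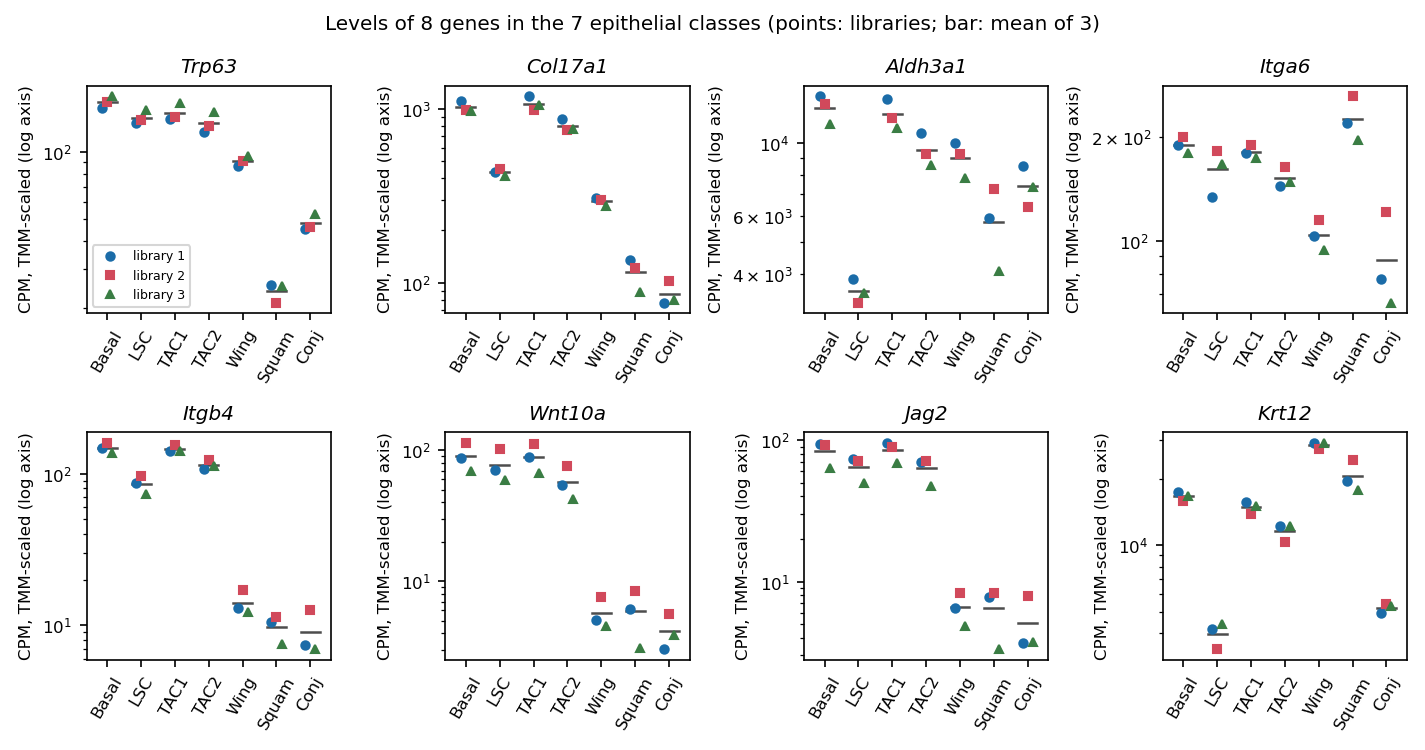
Level of 8 genes (CPM, TMM scaled, log axes that differ between panels) in the 7 epithelial classes, with 1 point per library and a bar at the mean of 3. Trp63 is highest in basal cells in each library, Col17a1 lies close together in basal and TAC1 cells, and Itga6 is higher in superficial than in basal cells in each library at this scaling.

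To see which class basal cells resembled, log2 CPM were correlated over 2976 genes with a mean log2 CPM of at least 5, within each library. These correlations are across genes that share their library and are a description, with no test. TAC1 cells were closest, at r = 0.989, 0.987 and 0.988 in libraries 1, 2 and 3. TAC2 cells followed at 0.969, 0.964 and 0.969, LSC at 0.899, 0.917 and 0.895, Wing at 0.801, 0.820 and 0.804, Conj at 0.674, 0.699 and 0.685 and Squam at 0.491, 0.516 and 0.492. Basal cells of different libraries correlated at 0.985 to 0.995, so in this measure TAC1 cells of a library were about as near to its basal cells as basal cells of another library were. The order did not differ between libraries.

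The number of genes that differed by more than 2-fold with an adjusted p under 0.05 in edgeR followed the same order. It was 24 of the 2976 genes (0.806%) against TAC1, 83 (2.79%) against TAC2, 233 (7.83%) against LSC, 626 (21%) against Wing, 932 (31.3%) against Conj and 1527 (51.3%) against Squam cells. Each cell was also given to the class whose profile its counts were nearest to, with the profiles and the cell's counts taken from a random 50% of UMIs. Of the 8829 basal cells 8612 (97.5%) stayed nearest to the basal profile, 159 came nearest to TAC1, 42 to LSC, 14 to TAC2 and 2 to Wing. In the other direction 2749 Wing cells (20.4%), 599 TAC2 cells (18.8%), 675 TAC1 cells (16.3%) and 27 LSC cells (3.66%) were nearest to basal, against 1 Conj and 0 Squam cells. The classes are the authors' labels for these same cells, and how they were made is not stated. The shares pool the cells of all 3 libraries, and each cell's counts are part of its class's profile, so they describe fit within these data. The p-values between classes below describe how repeatable a difference is over 3 libraries. Neither the shares nor the p-values test the classes.

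**Figure D2:**
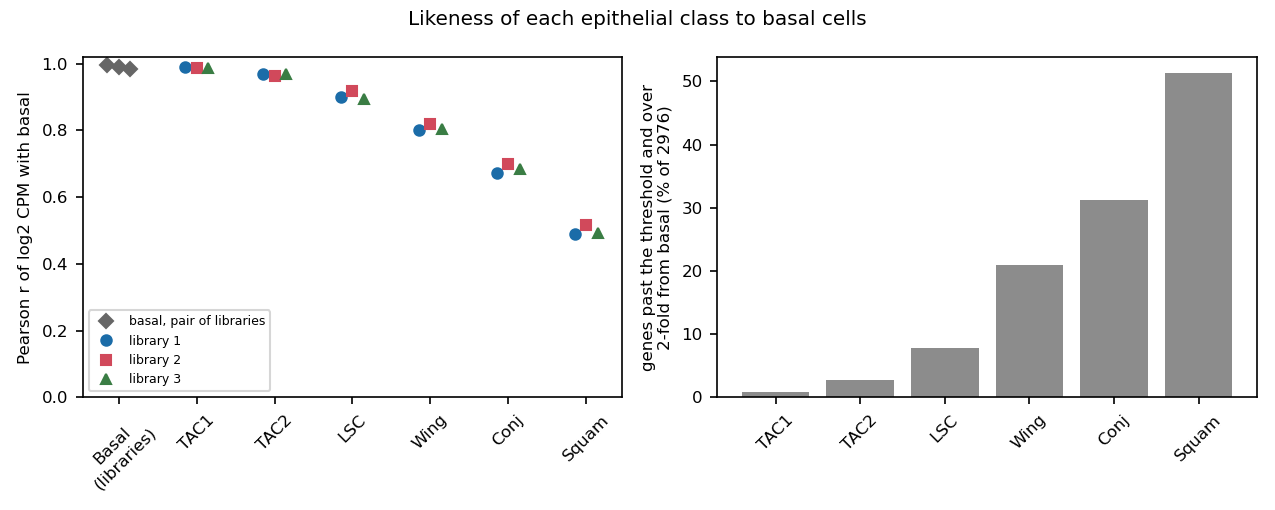
Left, Pearson's r of log2 CPM over 2976 genes between basal cells and each other class (1 point per library) and between basal cells of different libraries (diamonds). Right, bars give the percentage of those genes that differ from basal cells by more than 2-fold with an adjusted p under 0.05: TAC1 cells lie at 0.987 to 0.989 with 0.806% and superficial cells at 0.491 to 0.516 with 51.3%.

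Against the mean of the 6 other epithelial classes, Lsamp, Spon2 and Wnt10a had the largest log2 fold changes of the 15 genes named for basal cells. Of 13472 genes tested, 9776 (72.6%) differed with an adjusted p under 0.05 in edgeR, 4639 (34.4%) of them higher and 5137 (38.1%) lower in basal cells. With library totals in place of TMM the split was 7046 higher and 3208 lower, and the median of all genes moved from -0.04 to 0.25 on the log2 scale, so small differences carry no direction of their own. Wnt10a, a Wnt ligand on chromosome 1, was at 87.9, 114 and 69.9 CPM in basal cells against 5.03, 7.58 and 4.52 in Wing cells, and its log2 fold change against the other classes' mean was 2.22 (SE 0.05). No Wing, Squam or Conj library reached 10% of the basal level of its own library. Spon2, a secreted matrix protein (chromosome 5), was at 76.8, 82.5 and 53.2 CPM in basal cells and at 3.18 to 4.7 CPM on average in the 3 upper or conjunctival classes (2.31, SE 0.10). Lsamp, a surface adhesion molecule known from neurons (chromosome 16), was at 70.9, 65.2 and 83.2 CPM. Its log2 fold change of 2.47 (SE 0.07) was the largest of the 15 genes named for this comparison, which have a mean log2 CPM of at least 5. LSC cells held 6.85, 5.39 and 7.31 CPM of it, so limbal and corneal basal cells did not overlap.

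Adhesion and surface genes were among them. Itgb4, the beta 4 chain of the hemidesmosome integrin (chromosome 11), was at 148, 160 and 137 CPM in basal cells and at 6.96 to 17.0 CPM in the Wing, Squam and Conj libraries, a log2 fold change of 2.09 (SE 0.06) against the other classes' mean. Antxr1, a collagen-binding receptor, was 2.15 log2 units higher (112 ± 6.32 CPM, n = 3). Piezo2, a mechanosensitive ion channel of touch neurons, was 1.85 units higher at 65.7, 53.9 and 73.2 CPM. Secreted or surface signals were Jag2, a Notch ligand (2.02), Dkk3, a Dickkopf family protein (2.02), and Igfbp5 (2.11; 107, 136 and 86.7 CPM). Slc6a6, the taurine transporter, was 1.83 units higher at 640 ± 121 CPM, and Phgdh, the first enzyme of serine synthesis, 1.86 units higher at 220 ± 23.7. Cpe (carboxypeptidase E), Crip1 (a LIM domain protein) and Eva1a were 2.06, 2.03 and 1.87 units higher. Ftl1, the ferritin light chain, was 2.16 units higher, but it has near-identical copies that can share reads, so its value is uncertain. Every one of these 15 genes was above the other classes' mean in all 3 libraries. Their log2 fold changes against TAC1 ran from -0.03 (Jag2) to 0.37 (Spon2). In TAC1 cells Wnt10a was at 88.8 CPM against 90.7 in basal cells (0.03, adjusted p = 0.814 in edgeR), Itgb4 at 146 against 148, Jag2 at 84.7 against 83.2, and Crip1 at 681 against 669. Against TAC1 only Spon2 (0.37) and Eva1a (0.28) of the 15 passed the threshold. Against TAC2 all but Ftl1 and Crip1 did.

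The 15 genes named as lowest against the other classes' mean ranged from -5.25 (Snx31, a sorting nexin) to -4.70 (Hopx) and included 6 keratins. Krt4, a mucosal keratin, was at 3.43, 12.4 and 2.42 CPM in basal cells and at 3869, 4539 and 2527 CPM in Conj cells (-4.98 against the mean, SE 0.39). Krt13 (-4.88), Krt19 (-4.76), Krt7 (-4.78), Krt16 (-5.20) and Krt17 (-4.82) were lower as well. Cyp2a5 (-4.97), a cytochrome P450, Upp1 (-4.77), a uridine phosphorylase, Ripply3 (-4.72) and Akr1b7 (-4.71), an aldo-keto reductase, were among them. Others were Hopx (-4.70), a homeodomain cofactor at 20.2 ± 2.87 CPM in basal and 8550 in Squam cells, Spink5 (-5.14), an inhibitor of skin proteases, and Sprr1a (-4.85), a cornified envelope protein. Ifitm1 (-4.79), an interferon-induced membrane protein, was at 29.1, 82.5 and 28 CPM. Library 2 held the highest basal value of Krt4, Krt13, Krt19 and Ifitm1 alike. TAC1 cells were low in these genes too. Hopx was at 17.3, 18.7 and 12.4 CPM there and Krt19 at 3.69, 6.85 and 2.43, below basal cells in each library. Krt17 was above basal cells in each, at 0.66, 9.77 and 1.39 CPM. Several of the genes were near 0 in basal cells, such as Snx31 at 0.281, 0.477 and 0.223 CPM, where fold changes are less certain.

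Fewer genes were higher in basal cells than in every other class. In all, 136 genes (1.01% of those tested) were higher in basal cells than in each of the 6 other classes with an adjusted p under 0.05 in edgeR, and 146 (1.08%) were lower. The margins were small: ranked by the smallest of the 6 log2 fold changes, the leading gene of at least 5 log2 CPM was Lpar6 at 0.41, followed by Wnt2 at 0.39. Lpar6 was at 45.6, 41.0 and 59.3 CPM in basal cells and 37.0 on average in TAC1 cells. Wnt2, a Wnt ligand (chromosome 6), was at 40.3, 41.8 and 35.9 CPM, against 30.1 in TAC1, 22.8 in TAC2, 9.74 in Wing, 8.08 in LSC, 2.87 in Conj and 2.67 in Squam cells. Sphkap (0.37), a kinase anchoring protein, Spon2 (0.37), the nuclear receptor Rora (0.34; 89.6, 81.8 and 86.3 CPM), the calcium-binding Cib2 (0.33), Vwa5a (0.33), the chromatin remodeller Chd2 (0.32), Tmem230 (0.32), Eva1a (0.28), Nudt22 (0.27) and Prkra (0.27) followed. This count depends on the libraries and the fit. It was 36 without library 1, 30 without library 2, 146 without library 3 and 17 when the library was not a block in the model, with 36, 29, 101 and 17 of those among the 136.

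In the lists below a gene is counted when its p, adjusted over the whole table, is under 0.05, and the background shares are the 34.4% higher and 38.1% lower given above. The hemidesmosome and basement membrane list had 18 of 23 tested genes higher in basal cells than in the other classes' mean and 2 lower, with a median log2 fold change of 1.31 against -0.04 over all genes. Among the integrins, Itgb4 was 2.09, Itga3 1.76, Itga2 2.51 and Itgb1 1.31 log2 units higher. Of the laminin chains, Lama3 was 1.38 and Lamb3 1.68 units higher. Anchoring collagen Col7a1 was 2.01 units higher, and the linkers Dst and Plec 1.17 and 0.35. Itgav (-0.61) and Cd151 (-0.12) were the lower ones, of which Cd151 is too small to keep its direction apart from the scaling. Dst was at 309, 354 and 278 CPM in basal cells, 323, 327 and 266 in LSC and 268, 296 and 257 in TAC1 cells. Itga2, a collagen receptor chain, was at 14.7, 14.6 and 15.5 CPM in basal and 13.2, 10.8 and 14.6 in TAC1 cells. Its values were 3.92, 3.53 and 6.39 CPM in LSC cells. On average it was at 10.0 CPM in TAC2, 0.934 in Wing, 0.975 in Squam and 0.641 in Conj cells.

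Beyond adhesion, the list of p63 targets and basal keratinocyte genes had 9 of 16 higher and 4 lower, with a median of 0.77. Bnc1, a zinc finger factor of basal keratinocytes, was 1.81 units higher, and Dlk2, Myc and Fgfr2 were 1.85, 1.52 and 0.91 units higher. Krt15 (-4.23) was lower, as were Perp (-0.57), Sfn (-0.54) and Krt5 (-0.33). Against LSC cells alone this list had 4 higher and 8 lower (median -0.20), and against TAC1 cells 4 and 1 (0.08). The list of corneal and progenitor transcription factors had 5 of 21 higher and 9 lower, with a median of -0.21 that turned to 0.08 with library totals. Pax6, the factor that specifies the eye, was near level over classes (411, 409 and 381 CPM in basal cells, 314 to 420 on average elsewhere, 0.14 units higher). Elf3 (-2.50), Klf5 (-1.48), Klf6 (-1.30), Hopx (-4.70) and Id1 (-3.33), an inhibitor of differentiation factors, were lower. Id1 was at 6.64, 7.43 and 7.76 CPM in basal cells and at 270 in LSC cells.

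**Figure D3:**
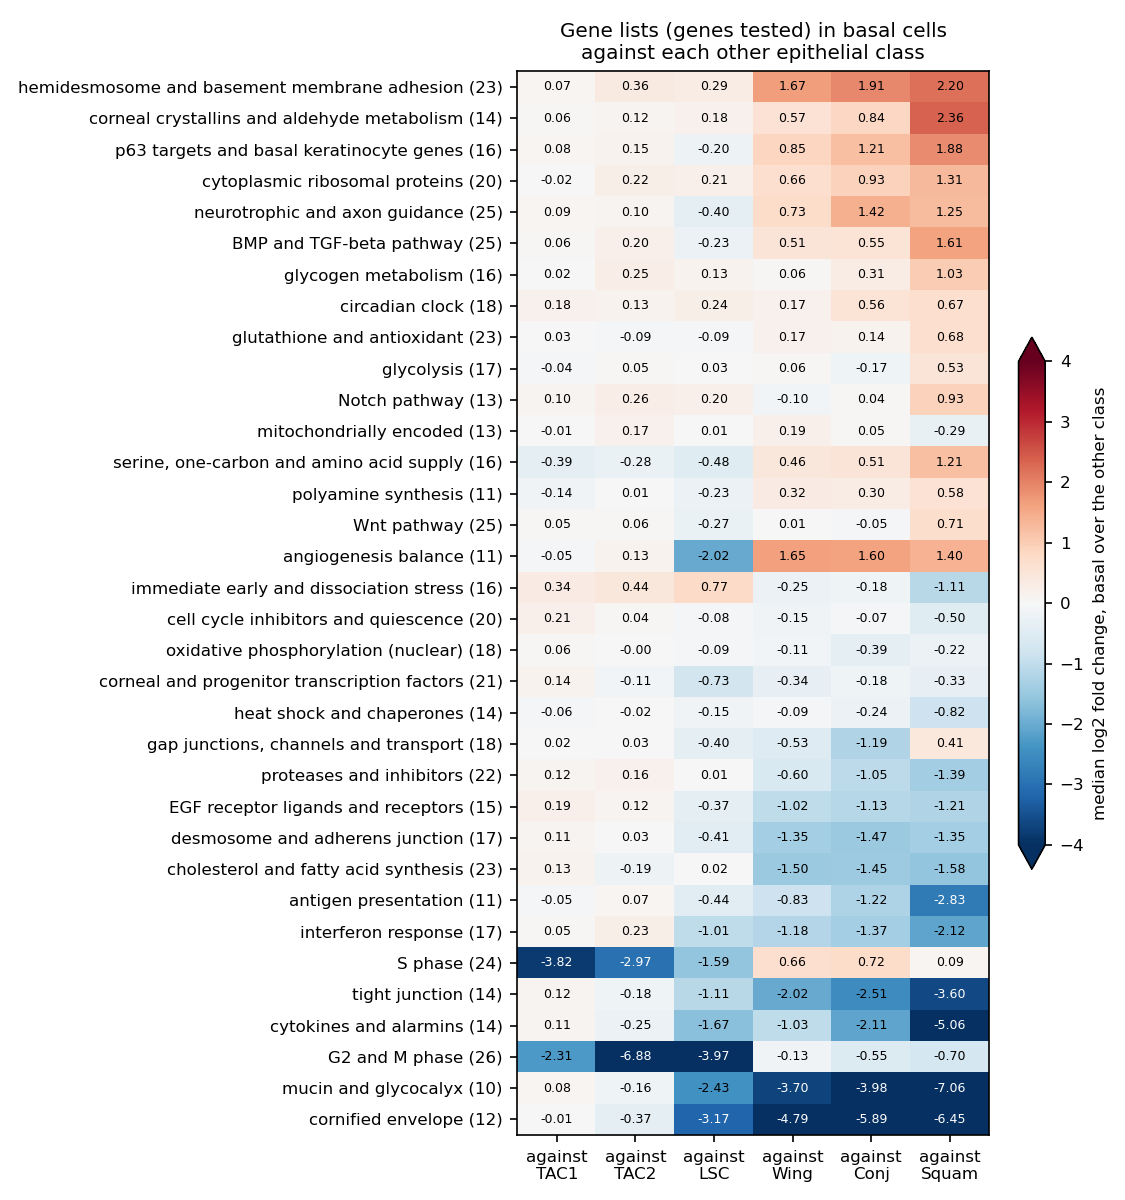
Median log2 fold change of 34 gene lists (rows, with the number of genes tested) in basal cells against each other class (columns), with TMM scaling and red for higher in basal cells. The S phase and the G2 and M phase lists are at -3.82 and -2.31 against TAC1, while the other lists lie between -0.39 and 0.34 in that column.

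In the Notch list 5 of 13 were higher and 3 lower (median 0.10): the ligands Jag2 (2.02), Dll1 (2.17; 28.4, 19.3 and 30.9 CPM) and Jag1 (0.73) and the modifier Lfng (2.23) were higher, and the receptor Notch2 (-1.10) and the feedback gene Nrarp (-0.89) were lower. In the Wnt list 10 of 25 were higher and 9 lower, with a median of -0.00 that rose to 0.29 with library totals (15 higher, 3 lower). Ligands higher in basal cells were Wnt10a, Wnt3a (2.36; 15, 13.8 and 13.4 CPM) and Wnt6 (2.23; 25.4, 27.6 and 34.6 CPM), and the secreted modulators Dkk3 and Sfrp1 were 2.02 and 0.84 units higher. Wnt7b (-0.79) was lower, and Wnt4 was near level at 499 ± 66.3 CPM (0.03). Axin2, a target of Wnt signalling, was at 0.722 CPM in basal and 8.88 in LSC cells.

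In the BMP and TGF-beta list 15 of 25 were higher and 6 lower, with a median of 0.47. Higher genes were the ligand Tgfb1 (1.40), the receptors Tgfbr1 (0.76), Tgfbr2 (0.83) and Tgfbr3 (1.17), and Tgfbi, the matrix protein mutated in corneal dystrophies, at 496, 522 and 405 CPM (1.27). Bmpr2 (-0.53) and Smad7 (-0.75) were lower. Against LSC cells alone this list had 6 higher and 10 lower (median -0.23), and against TAC1 cells 1 and 2 (0.06). The list of EGF receptors and ligands had 5 of 15 higher and 8 lower, with a median of -0.59. Most ligands of the receptor were far lower, among them Areg (-5.72), Ereg (-5.20), Btc (-3.19), Hbegf (-2.92) and Tgfa (-2.47). Areg was at 0.0935, 0.239 and 0.0636 CPM in basal cells and Ereg at 0.187, 0.273 and 0.0636. At values this near 0 fold changes are less certain. Nrg1, a ligand of related receptors, was 2.06 units higher at 48.0 CPM, and the receptor Egfr was at 61.8, 63 and 63.3 CPM with no call (0.06). Lrig1, a negative regulator of these receptors, was 1.05 units higher at 57.4, 62.0 and 56.1 CPM. Against LSC cells alone this list had 4 higher and 7 lower (median -0.37), and against TAC1 cells 1 and 1 (0.19).

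The neurotrophic and axon guidance list had 15 of 25 higher and 6 lower, with a median of 0.55. The cornea is densely innervated by fibres that end among its epithelial cells. Ngfr, a receptor for neurotrophins, was at 33.0, 25.3 and 26.7 CPM (2.08), the neurotrophins Ntf3 at 52.4, 45.2 and 42.8 CPM (1.18) and Ntf5 at 8.71 CPM (1.67), and the guidance protein Ntn4 at 45.8, 38.3 and 45.2 CPM (1.00). Sema4d (-1.63), Efnb2 (-1.50) and Epha4 (-1.87) were lower. Against LSC cells alone this list had 7 higher and 10 lower (median -0.40), and against TAC1 cells 5 and 1 (0.09). In the list of angiogenesis balance 5 of 11 were higher and 3 lower, with a median of -0.07. Sparc, a matricellular protein, was at 40.8, 52.5 and 30.2 CPM and 2.35 units higher, and Vegfb, Timp3 and Angptl4 were 1.58, 1.83 and 2.23 units higher. Flt1 was near 0 in basal cells (0, 0.0341 and 0.0318 CPM) and at 6.2, 12.6 and 3.2 CPM in LSC cells. Against LSC cells alone the angiogenesis list had 3 higher and 6 lower (median -2.02), and against TAC1 cells 0 and 1 (-0.05). Among channels and transporters 6 of 18 were higher and 7 lower. The gap junction protein Gja1 (1.80; 252 CPM) and the sodium pump subunit Atp1b3 (0.55) were higher, and the water channel Aqp5 (-0.68; 3027, 3404 and 2456 CPM in basal against 10538 in Wing cells) and Slc12a2 (-1.24) were lower.

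Against the other classes' mean, metabolic lists gave clear directions for crystallins, ribosomal proteins and cholesterol synthesis. Of 14 crystallin and aldehyde metabolism genes 11 were higher and 2 lower (median 0.82). Tkt, a pentose phosphate enzyme, was at 7150, 7477 and 6052 CPM in basal cells and 1.63 units higher (SE 0.04). The small heat shock crystallin Cryab (-2.54) and Aldh1a3 (-1.06), which makes retinoic acid, were the lower ones. Against LSC cells alone this list had 6 higher and 3 lower (0.18), and against TAC1 cells 1 and 0 (0.06). All 20 ribosomal protein genes listed were higher, with a median of 0.56, and Rpl13 was at 9950, 10917 and 10723 CPM (0.78). Of 23 genes of cholesterol and fatty acid synthesis 20 were lower and 0 higher, with a median of -0.72. Fdps, which makes farnesyl diphosphate, was at 152, 165 and 180 CPM in basal cells against 941, 860 and 920 in Wing cells (-1.55 against the mean). Sqle (-1.35), Dhcr7 (-1.36), Lss (-1.14) and Fdft1 (-1.13) were lower too. That direction was absent against the LSC and TAC1 classes. There 7 of 23 were higher and 4 lower (0.02), and 2 and 2 (0.13).

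Other metabolic lists were mixed. Glycogen genes had 8 of 16 higher and 3 lower (median 0.34), and Gyg, the protein primer of glycogen, was at 356, 368 and 458 CPM (1.15) and Ppp1r3c at 60, 52.4 and 86.6 CPM (0.99). Glycolysis genes had 6 of 17 higher and 5 lower (0.11), with the glucose transporter Slc2a1 1.04 units higher. Of the glutathione and antioxidant genes 11 of 23 were higher and 10 lower (0.22). Gsto1 (-2.78) and Gsta4 (-1.05) were lower, and Gstm1 (1.03), Prdx6 (0.94), Gclc (0.95) and Txn1 (0.66) were higher. Serine and one-carbon genes had 6 of 16 higher and 5 lower (0.06): Phgdh, Shmt1 (1.25) and Mthfd1 (1.56) were higher, and Mthfd2 (-2.01) and Chac1 (-2.91) lower. In the polyamine list 5 of 11 were higher and 4 lower (0.02): the synthesis genes Odc1 (0.96), Srm (0.90) and Sms (0.96) were higher, and Sat1 (-1.14) and Smox (-1.71), which break polyamines down, were lower. Nuclear genes of oxidative phosphorylation had a median of -0.15 (2 higher, 10 lower of 18) that turned to 0.14 with library totals (11 higher, 3 lower), so no direction is given. The same holds for the 13 mitochondrially encoded genes, where 3 were higher and 5 lower, and 10 and 1 with totals.

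Genes of the tissue surface were lower in basal cells than in the other classes' mean. In the tight junction list 13 of 14 were lower and 1 higher (median -1.47), in the cornified envelope list 11 of 12 were lower and 1 higher (-3.91), and in the mucin and glycocalyx list 9 of 10 were lower and 0 higher (-2.70). Cldn3 and Cldn23, tight junction claudins, were at 1.88 ± 0.798 and 1.54 ± 0.380 CPM. Muc4, a membrane mucin, was at 8.32, 11.5 and 5.63 CPM in basal and 4613 in Squam cells (-4.43). Desmosome genes were less far apart, with 15 of 17 lower and 1 higher (-0.63). Dsp, the desmosome plaque protein, was at 548, 582 and 515 CPM against 1397 in Wing cells (-0.43), and Dsg3 was lower by more (-1.65). Dsc3 (0.22) was the higher one. TAC1 cells did not show these differences. Against them 3 tight junction genes were higher and 0 lower (median 0.12), and 3 desmosome genes were higher and 0 lower (0.11). The mucin list had 0 higher and 1 lower (0.08) and the cornified envelope list 0 and 0 (-0.01). Against LSC cells the tight junction, cornified envelope, mucin and desmosome medians were -1.11, -3.17, -2.43 and -0.41.

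Immune genes were lower than that mean as well. All 11 antigen presentation genes were lower (median -0.84), with Psmb8, an immunoproteasome subunit, at 35.3, 37.3 and 23 CPM (-2.37). Interferon response genes had 11 of 17 lower and 1 higher (-0.86): Ifit3 (-3.14), Isg15 (-2.24) and Oasl2 (-2.89) were lower, and Ifitm2 (0.98) was the higher one. Of the cytokines and alarmins 8 of 14 were lower and 2 higher (-2.07). The alarmin and interleukin genes Il18 (-2.15), Il1rn (-4.85), Il33 (-2.53) and S100a9 (-4.16) were lower. Cxcl14, a chemokine of epithelia, was 3.06 units higher at 5.25 CPM. Against TAC1 cells alone the antigen presentation list had 0 higher and 2 lower (median -0.05) and the interferon list 0 and 2 (0.05). The cytokine list had 0 and 0 there (0.11). Against LSC cells the medians of these 3 lists were -0.44, -1.01 and -1.67, and against TAC2 cells 0.07, 0.23 and -0.25. Proteases and their inhibitors had 7 of 22 higher and 14 lower (-0.50): the membrane serine proteases Tmprss11d (1.67; 446, 471 and 508 CPM) and Tmprss11a (1.10) were higher, and the kallikreins Klk8 (-1.63), Klk10 (-1.86) and Klk11 (-3.13) were lower. The list of immediate early and dissociation stress genes had 5 of 16 higher and 4 lower, with a median of -0.09. Heat shock genes had 5 of 14 higher and 7 lower (-0.25). With library totals these medians turned to 0.20 and 0.03. Markers of immune cells were near 0 in basal cells, as given above.

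TAC1 was the nearest class, and the largest differences from it were in cell cycle genes. Of the genes tested 3215 (23.9%) passed, 1368 (10.2%) higher and 1847 (13.7%) lower in basal cells. The split moved with the setting: 256 were higher and 1136 lower with no library block, 371 and 1335 without library 1, 566 and 1415 without library 2, 1257 and 1554 without library 3, and 384 and 992 at 2000 UMIs per cell. With RLE scaling it was 1723 and 1752, and with only both classes in the fit 2517 and 2596. All 24 S phase genes were lower in basal cells, with a median of -3.82, and 23 of 26 G2 and M phase genes were lower, with a median of -2.31. Pclaf, a PCNA-associated factor of DNA replication, was at 1.28, 2.66 and 2.77 CPM in basal cells against 73.0, 108 and 106 in TAC1 cells (-5.41, SE 0.26). Cdk1 (-4.26), Top2a (-4.08) and Gmnn (-3.04), which encode a mitotic kinase, a topoisomerase and geminin, were next. Cenpf, a kinetochore gene, was the G2 and M phase gene that was higher in basal cells, at 10.0, 8.49 and 11.2 CPM against a mean of 4.86 (1.02, SE 0.28).

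Differences in the other direction were smaller. Mxd4, an antagonist of Myc, was at 34.8, 35.5 and 30.9 CPM in basal cells and 12.6, 12 and 14.5 in TAC1 cells (1.40, SE 0.09, adjusted p = 3.2e-13 in edgeR). The histone genes Hist1h2bc (1.61; 115, 124 and 162 against 37.8, 50.3 and 39.6 CPM) and Hist1h1c (0.98) were higher. Histone genes have near-identical copies, and the deposited counts do not say how shared reads were treated. Among cell cycle inhibitors and quiescence genes 7 of 20 were higher and 2 lower, with Ccng2 (0.96), Cdkn2b (0.79), Tob1 (0.74) and Btg1 (0.50) among the higher. Of 16 immediate early genes 5 were higher and 0 lower (median 0.34). The serine and one-carbon list had 8 of 16 lower and 2 higher, with Mthfd2 (-2.33) and Shmt1 (-0.80) lower. In the adhesion list 1 of 23 was higher and 0 lower. Ribosomal protein, cornified envelope and cytokine lists had 0 genes past the threshold in either direction in edgeR. The ribosomal protein genes ran from -0.09 (Rps2) to 0.04 (Rpl10) and the cornified envelope genes from -0.61 (Tgm1) to 0.19 (Scel). The cytokines and alarmins ran from -2.20 (S100a9) to 0.38 (Csf1). The smallest adjusted p in edgeR was 0.215, 0.24 and 0.129 in these lists.

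The count of genes differing from TAC1 moved with the setting. It was 1392 with no library block, 1706 without library 1, 1981 without library 2, 2811 without library 3, 1376 at 2000 UMIs per cell and 5113 when only basal and TAC1 sums were fitted, of which 3168 were among the 3215 with the same direction. Simulated-doublet scores, which mark mixed profiles, were among the highest 10% of their library for 5.73 to 6.87% of basal cells, and without those cells 3184 genes differed from TAC1.

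Cell cycle genes were lower in basal than in TAC2 cells too. Of the genes tested 5348 (39.7%) passed, 2651 (19.7%) higher and 2697 (20%) lower. With library totals these were 1755 and 3459. All 26 G2 and M phase genes (median -6.88) and all 24 S phase genes (-2.97) were lower in basal cells. Top2a was at 1.71, 2.42 and 2.16 CPM in basal cells and at 368 in TAC2 cells (-7.46, SE 0.22), and Pclaf (-7.13), Birc5 (-6.91), the survivin gene, and Cdk1 (-6.85) followed. Genes higher in basal cells were Mxd4 (1.90), Aldoa (1.43), a glycolytic aldolase, Eid1 (1.09) and Igfbp5 (1.08). The adhesion list had 17 of 23 higher and 0 lower, with a median of 0.36, and Col17a1 was at 796 CPM in TAC2 cells (0.36 units higher in basal cells, adjusted p = 0.0141 in edgeR). Ribosomal proteins had 18 of 20 higher (0.22).

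Few basal cells held transcripts of dividing cells. At 2000 UMIs per cell, a UMI of Mki67 or Top2a was found in 1.19, 1.12 and 1.78% of basal cells of libraries 1, 2 and 3 (2102, 2507 and 3987 cells). The shares were 59.3% ± 2.69 in TAC2, 10.1% ± 1.91 in TAC1 and 7.19% ± 1.43 in LSC cells (SD, n = 3). Wing cells gave 0.789% ± 0.122, against a basal mean of 1.36% ± 0.364. With 3 libraries an exact two-sided sign-flip permutation test cannot go below p = 0.25. The share depends on depth, at 0.735% ± 0.355 for 1000 UMIs and 2.73% ± 0.170 for 4000 UMIs per cell. In the class labelled Immune the share was 0, 8.57 and 0% of 16, 35 and 5 cells.

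The largest differences between basal and limbal cells were in keratins and other genes that were low in basal cells. Of the genes tested 5448 (40.4%) passed, 2380 (17.7%) higher and 3068 (22.8%) lower in basal cells, or 1701 and 3739 with library totals. Lower in basal cells were Krt17 (-8.48, SE 0.46), the serpin Serpinb3a (-8.14), Cyp2a5 (-6.96) and Krt4 (-6.64). The limbal marker Gpha2, a glycoprotein hormone subunit, was at 101, 131 and 59.8 CPM in basal cells and at 2067, 2258 and 2045 in LSC cells (-4.54, SE 0.25). Krt15 was at 131, 304 and 89.4 against 6643, 6281 and 8104 CPM (-5.57). No library of one class overlapped the other in either gene. Krt15 was not confined to limbal cells: it was at 29980, 30657 and 25011 CPM in Conj and 5879, 5909 and 4552 in Wing cells. At 2000 UMIs per cell Gpha2 was seen in 16.5% ± 4.63 of basal and 81.1% ± 6.71 of LSC cells, and also in 18.3% of TAC1, 13.5% of Conj and 4.01% of Wing cells.

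Genes higher in basal than in limbal cells included the corneal keratin. Lsamp (3.48), Tmprss11d (3.04), Piezo2 (2.78) and the immediate early gene Fos (2.76; 223, 237 and 131 against 31.0, 25.4 and 33.8 CPM) led. Krt12, the keratin of corneal epithelium, was at 17384, 15958 and 16805 CPM in basal and 4152, 3377 and 4381 in LSC cells (2.08, SE 0.12). Aldh3a1 (1.84), Klf4 (1.38) and Col17a1 (1.23) were higher too. Of 16 immediate early genes 8 were higher and 2 lower (median 0.77). The adhesion list had 11 of 23 higher and 4 lower (0.29). Lamb3 (-0.66) was among the lower and Nid1 (2.55), Lamb1 (1.78) and Itga2 (1.78) among the higher. The cell cycle lists were lower in basal cells (0 higher and 23 of 24 S phase and 26 of 26 G2 and M phase genes lower). Of the cells labelled LSC 18.1 to 20.2% had a doublet score in their library's highest 10%, against 5.73 to 6.87% of basal cells. Without the cells of that highest 10% in every class 4664 genes differed from LSC, 4218 of them among the 5448 and in the same direction.

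Against wing cells, the layer above, most listed adhesion genes were higher in basal cells and cholesterol synthesis genes were lower. Of the genes tested 9989 (74.1%) passed, 4637 (34.4%) higher and 5352 (39.7%) lower in basal cells, or 6321 and 3920 with library totals. Wnt10a (3.99, SE 0.08), Spon2 (3.91), Jag2 (3.67; 93.5, 92.2 and 63.9 against 6.55, 8.35 and 4.86 CPM) and Ftl1 (3.64) were the highest in basal cells, and Spink5 (-7.50, SE 0.44), Akr1b7 (-6.73), Ly6g6c (-6.62) and Hopx (-6.61) the lowest. The adhesion list had 19 of 23 higher and 1 lower (median 1.67). All 23 cholesterol and fatty acid genes were lower in basal cells (-1.50). Cdkn1a, which encodes the cell cycle inhibitor p21, was at 13.8, 16.4 and 26.0 CPM in basal and 382, 358 and 391 in Wing cells (-4.36, SE 0.16). Ccnd1, cyclin D1, was 1.51 units and Ccnd2 2.16 units higher in basal cells. Of the S phase genes 14 of 24 were higher in basal than in Wing cells and 2 lower (0.66). Krt12 was higher in Wing cells (-0.77).

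Superficial cells were the farthest from basal cells. Of the genes tested 11478 (85.2%) passed, 5729 (42.5%) higher and 5749 (42.7%) lower, and with library totals 9470 were higher and 2721 lower. The median of all genes moved from 0.02 to 1.29 under that change, so differences under about that size have no fixed direction here. Crct1 (-10.61, SE 0.41), Cnfn (-10.53), Lce3a (-10.50) and Clic5 (-10.23), of which the first 3 belong to cornified cells, were the lowest in basal cells. Crct1 was at 0.218, 0.818 and 0.191 CPM in basal and 622, 915 and 324 in Squam cells. Ftl1 (4.26), Crip1 (4.02), Pdpn (3.98), the podoplanin gene, and Wnt10a (3.97) were the highest. All 10 mucin and glycocalyx genes (median -7.06) and all 11 antigen presentation genes (-2.83) were lower in basal cells, and the adhesion list had 18 of 23 higher and 4 lower (2.20).

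Conjunctival cells had 10280 genes (76.3%) past the threshold, 4940 (36.7%) higher and 5340 (39.6%) lower in basal cells, or 7121 and 3664 with library totals. Spon2 (4.46), Wnt10a (4.44), Ftl1 (4.31) and Lsamp (4.25) led the higher genes, and Cyp2a5 (-9.93), Krt19 (-9.42), Krt4 (-9.41) and Serpinb3a (-9.17) the lower. A UMI of Krt4, Krt13 or Krt19 was found in 6.76, 12.9 and 4.89% of basal cells at 2000 UMIs, against 98.0% ± 0.407 of Conj cells. The class labelled Immune, which should lack these keratins, gave 39.9% ± 8.66 at the same depth (5 to 35 cells per library). That class need not have the same background as basal cells. The basal share is not read as expression, and its source was not tested. The neurotrophic list had 15 of 25 higher and 8 lower (median 1.42) and the BMP and TGF-beta list 15 and 5 of 25 (0.55).

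Malat1, Krt12, Gsta4 and Aldh3a1 led the named genes that varied among basal cells by more than counting alone gives. Cells were thinned to 2000 UMIs, which left out 233 basal cells, and each gene's variance was divided by its mean within a library, where a value of 1 is what counting alone gives. Over 985 genes with a mean of at least 0.2 UMI in each library the median of the lowest library value was 1.01, and 37 genes reached 1.5 in every library. The 12 highest taken by the naming rule were Malat1 (8.69, 12.6 and 11 in libraries 1, 2 and 3), Krt12 (4.48, 4.82 and 4.96), Gsta4 (4.51, 3.87 and 4.78), Aldh3a1 (4.18, 4.28 and 3.81), Slurp1, S100a6, Krt15 (3.91, 3.73 and 2.77), Tmsb4x, AY036118, Aqp5, Krt5 and Calml3. Malat1 is a nuclear noncoding RNA, Slurp1 a secreted protein of corneal epithelium and S100a6 a calcium-binding protein. In Wing cells the ratio was higher than in basal cells for Krt12 (7.99, 9.11 and 6.58) and for Tmsb4x (8.32, 8.23 and 8.54). Both genes were also more abundant there. Krt12 was at 29194, 27344 and 29064 CPM in Wing against 17384, 15958 and 16805 in basal cells. Tmsb4x was at 27494, 28677 and 34437 against 13664, 13942 and 17957 CPM. At equal relative spread the ratio rises with the mean, so it ranks neither the classes nor the genes by relative spread.

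The variable genes moved together in part. Krt12 had 26, 23 and 24 UMIs at the 10th percentile of basal cells and 61, 56 and 59 at the 90th percentile, and Gsta4 2, 3 and 2 and 16, 17 and 15. Across basal cells of a library Krt12 correlated with Aqp5 at r = 0.43 to 0.52, with Krt5 at 0.43 to 0.45 and with Gsta4 at 0.37 to 0.43, and Gsta4 with Calml3, a calmodulin-like protein of differentiating keratinocytes, at 0.41 to 0.45. Krt12, Krt5, Gsta4 and Aqp5 are all higher in Wing than in basal cells. Krt15 stood apart: it was found in 22.4, 36.2 and 15.4% of basal cells and its r with the other 11 genes ran from -0.20 to 0.15. In the class labelled Immune, which should lack Krt15, it was found in 25, 37.1 and 60% of 16, 35 and 5 cells. Whether Krt15 counts in basal cells exceed a background level was not tested. Malat1 and Tmsb4x were opposed at -0.33 to -0.27. These are correlations over cells of 1 library at equal depth, given as a description.

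**Figure D4:**
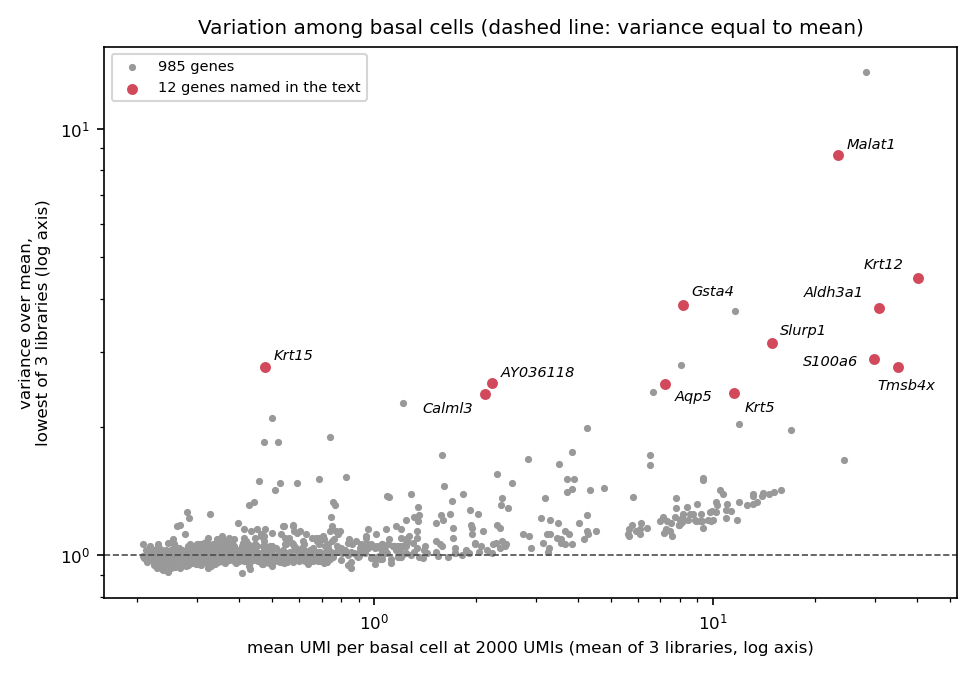
Variance over mean (lowest of 3 libraries) of 985 genes among basal cells thinned to 2000 UMIs, against the mean UMI per cell, both on log axes. Red points are the 12 genes named, the dashed line marks a variance equal to the mean, and the unlabelled point above Malat1 is a predicted gene left out by the naming rule.

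Class markers were also counted as shares of cells with a UMI at this depth, with no test. Col17a1 had a UMI in 89.8, 87.5 and 86.3% of basal cells, Itga6 in 36.3, 37.5 and 33.7% and Trp63 in 30.5, 32.5 and 33.9%. In TAC1 cells the means were 89.0% for Col17a1, 35.7% for Itga6 and 30.8% for Trp63, and in LSC cells 62.9, 35.2 and 36.7%. In the class labelled Immune, which should lack them, they were 23.6, 11.4 and 3.81%. A cell without a UMI of Trp63 at 2000 UMIs cannot be said to lack it. A UMI of Fos, Jun or Egr1 was found in 46.5, 54.0 and 46.7% of basal cells, with 44.2% ± 3.79 of TAC1, 45.6% ± 1.98 of TAC2, 31.2% ± 5.96 of LSC, 38.0% ± 0.817 of Wing and 77.7% ± 15.4 of Immune cells.

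Basal cells were much alike in the 3 libraries. Over 2768 genes with a mean log2 CPM of at least 5 in basal cells the median difference between the highest and lowest library was 0.20 log2 units, and 13 genes differed by more than 1. Most of these follow with their values. Libraries are single pools that differ in age, sex and number of mice at once, so the values are a description, with no test. Krt15 (131, 304 and 89.4 CPM in libraries 1, 2 and 3), Ifitm1 (29.1, 82.5 and 28), Asprv1 (68.9, 108 and 49.1), Gpha2 (101, 131 and 59.8), Tmem176b (57.5, 91.6 and 42.1), Psca (65.6, 103 and 47.9) and Krt6b (34.5, 49.1 and 21.9) were highest in library 2 and lowest in library 3. Fabp5 was highest in library 1 (296, 183 and 119). Jag1 (56.6, 46.6 and 97.6) and Dapk1 (31.9, 27.0 and 55.1) were highest in library 3. The conjunctival set of keratins was highest in library 2 as well, at a sum of 40.9, 72.5 and 28.4 CPM of the basal totals. The limbal set, which includes Krt15 and Gpha2 named above, summed to 349, 614 and 242 CPM. Of these sums Krt15 made up 158, 357 and 105 CPM. The set does not mark the limbus alone: it averaged 25545 CPM in Conj, 12507 in LSC and 5524 in Wing cells. The part of these sets in the values above was not tested.

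Clock genes formed the other pattern between libraries. The circadian clock is a loop in which Arntl, Clock and Npas2 activate the Per and Cry genes, Dbp and others, which run in opposite phase to Arntl. These 3 activators were highest in library 3, with Arntl at 2.21, 1.67 and 10.8 CPM, Npas2 at 0.405, 0.409 and 1.46 and Clock at 32.3, 30.2 and 51. Several genes of the opposite arm were lowest there, with Dbp at 247, 295 and 90.8 CPM, Per1 at 21.3, 26.4 and 9.98, Per2 at 9.85, 8.45 and 1.56, Ciart at 10.4, 9.20 and 2.83, Tef at 87.1, 86.4 and 46.8 and Bhlhe41 at 30.6, 25.2 and 11.4. Hlf (375, 339 and 478), Bhlhe40 (67.8, 67.9 and 67.0) and Rora (89.6, 81.8 and 86.3) did not follow that split, nor did Nr1d1 (83.8, 75 and 87.7), a repressor of Arntl. Other classes showed it too: Dbp was at 218, 236 and 89.5 CPM in TAC1 and 146, 172 and 98.1 in Wing cells. The hour at which tissue was taken is not given in the labels. Within libraries, 12 of 18 clock genes were higher in basal cells than in the other classes' mean and 3 were lower (median 0.30), with Bhlhe41 1.90 and Hlf 0.95 units higher.

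**Figure D5:**
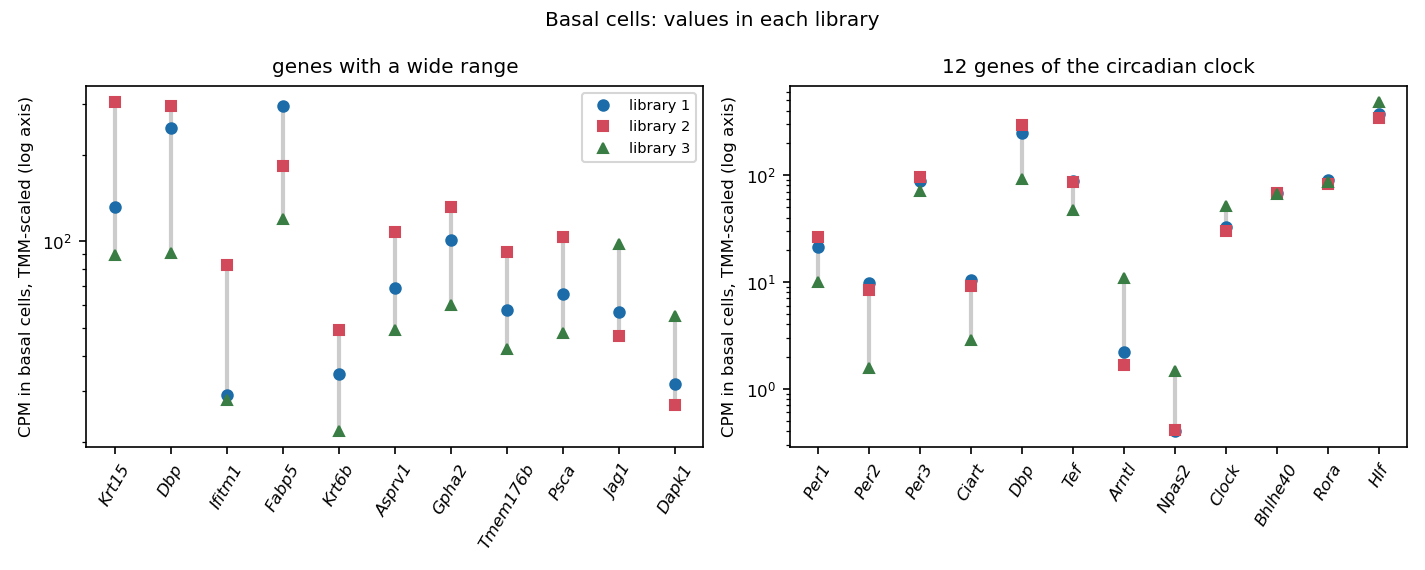
Levels in basal cells (CPM, TMM scaled, log axes) in each library, with 1 point per library and a grey line over their range: genes with a wide range on the left and 12 clock genes on the right. Arntl, Npas2 and Clock are highest in library 3, and Dbp, Per1 and Per2 are lowest there.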

How the data were processed

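Single-cell RNA-seq was made from 3 libraries with the Chromium 3′ v3.1 kit, per the labels. The authors deposited a matrix of unnormalized UMI counts and a table that gives the class and library of each cell. The submitters' processing notes name Cell Ranger 5.0.0, Seurat 4 and the build mm10, with no role or order. How cells were filtered, doublets handled and classes annotated was not stated there or in the labels. Library 1 was matched to its sample by elimination, because its name in the cell table carries no number.

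Counts were summed per library and class into 21 sums, leaving out the class labelled Immune. They were fitted with edgeR 4.0.16 (R 4.3.3): filterByExpr, TMM scaling, class and library as terms, the quasi-likelihood F test and Benjamini-Hochberg adjustment over 13472 genes of 17931, with a threshold of 0.05. The library is a block because all classes of a library come from the same pool of animals. The 3 libraries are separate pools. Basal cells were compared with the mean of the 6 other classes and with each class. Counts per cell were compared after thinning to 2000 UMIs. Intervals cover counting error only. The fit and the summaries were tested on simulated data.

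The members and gene lists were chosen with earlier results of these data known. Genes were named by rule: the 15 highest and 15 lowest against the mean and 4 each way against each class (same sign in 3 libraries, mean log2 CPM of at least 5), the 12 highest in basal cells, the 12 most variable, and up to 4 of each list. Mitochondrial, ribosomal protein and predicted genes were left out of the rule. Other genes named, among them further list members and the genes that differ between libraries, were chosen after their values were seen. Alternatives were DESeq2 1.42.0, other scalings and filters, leaving out libraries, and depth, doublet and reassignment settings. Coordinates are from GENCODE M21 and promoters from RefSeq (GRCm38.p6). A few genes are not reported here.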

Additional observations from a re-analysis of the deposited data

How the results depend on the processing

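Of 3381 values for named genes recomputed under the alternatives, 3261 kept their direction and side of the threshold, 47 fell short of it, 59 passed it newly and 14 reversed. The cause was not tested. Counts of genes past the threshold moved under several settings. At 2000 UMIs per cell 6446 genes differed from the mean of the others, 2290 from LSC, 1376 from TAC1, 2427 from TAC2 and 6792 from Conj cells, and 18 were highest in basal cells. With no replicate block for the library, 1392 genes differed from TAC1, 3095 from TAC2 and 17 were highest. This pairing of classes within libraries changed no other count by over 1.5 times, and 238 of 247 named values kept their call. Leaving out 1 library gave 1706 to 2811 genes against TAC1 and 30 to 146 highest in basal cells. With only both classes in the fit 5113 genes differed from TAC1. Genes highest in basal cells numbered 45 with classes reassigned and 85 with deposited classes, each on 50% of UMIs. The share of basal cells with a UMI of Mki67 or Top2a was 0.735% at 1000 and 2.73% at 4000 UMIs, and 81 genes were variable at 4000 UMIs.

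The reversed values all concern basal cells against the mean of the others. With library totals AY036118 was at 0.22, Aqp3 at 0.21, Junb at 0.21, Klf4 at 0.18 and mt-Co2 at 0.16. Against 1 sum of all other cells AY036118 was at 0.21, Krt12 at -0.28, Slurp1 at -0.36, Txnip at 0.38 and mt-Co2 at 0.07. Cd74 was at 1.08 with classes reassigned, and Cenpf was at 0.42 without the highest doublet scores. Without TAC1 and TAC2 Cenpf was at 0.63 and Pcna at 0.07.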
